A study of Mus musculus with 9 samples.

Results

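The early genes examined here are 39 genes that neurons and other cells switch on within a short time of electrical activity, a hormone or a stress. They were listed by symbol, with no threshold on a measured value though with earlier results of these data known, and all 39 were found among the 22601 genes counted. Their levels were read in 810 inhibitory neurons from the central amygdala, a forebrain nucleus made up mostly of GABAergic neurons with roles in fear, feeding and pain. The neurons came from wild-type (WT) B6 mice, in 9 samples that form 1 group with no treatment, so each comparison below is between neurons of the same samples or between the date fields in the cell identifiers. The labels used here state neither age nor sex, nor whether each sample is a separate animal. The p-values therefore measure only the spread between these samples, which may be technical. Each sample carries 1 of 3 animal numbers and 1 of 3 date fields, called dates 1 to 3 below, and every number occurs once with every date.

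Immediate early genes need no new protein to be switched on. Calcium entry and growth factor signals activate kinases that phosphorylate transcription factors already sitting at these genes, such as CREB and SRF with its Elk partners, and the transcripts appear and decay quickly. Many of them encode transcription factors that then act on slower genes, others encode enzymes and inhibitors that shut the signal down, and a few act at synapses. Fos and its relatives are widely used in the amygdala to mark neurons that were recently active. Cutting slices and dissociating tissue into single cells are also known to induce these genes. Per the labels the cells were microdissected, dissociated and pooled from acute slices, and every sample went through this, so induction before and after the tissue was taken cannot be told apart here.

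The samples held 82 to 95 inhibitory neurons, and their summed gene counts ran from 8250028 to 22443903, with median depths per neuron from 96675 to 227570 counts. To be kept as an inhibitory neuron, a cell had to carry Gad1, Gad2 or Slc32a1 at the positive level and lack both Slc17a7 and Slc17a6 at that level. The positive level is 1 or more counts of a gene per 10000 gene counts of the cell, spike-ins left out. Of 376 cell barcodes, 368 occur in more than 1 cell and none in more than 3, and 0 neurons had the same counts as another. Gad2 was positive in 94.9% and Gad1 in 89.6% of the neurons, in part by this rule. Mbp, a gene of oligodendrocytes, reached it in 25.9%, while the microglial genes C1qa and C1qb had 0 counts and the astrocyte gene Aqp4 was positive in 1 neuron. The values of a gene are not divided by its length, so levels are compared between samples and classes of neuron and not between genes.

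The stretches of DNA just before these genes show which of the known control elements lie close to their starts. RefSeq (GRCm38.p6) gave a window from 250 bases before to 50 bases after the start for 29 of the 39 genes, and it is reference sequence, not sequence from these mice. Only the first window listed for each gene was searched, and some genes have more. The core site TGACG, read on both strands, is part of the element that CREB binds. It was found in 18 of the 29 windows (62.1%), against 28.5% of all windows, those of the 12416 counted genes that had one. The full palindrome TGACGTCA, which contains that core on both strands, was found in 2 windows (6.90%, against 2.92% of all), those of Btg2 and Dusp1. Outside the palindrome, the core site was present in 17 of the 29. The CArG box, bound by SRF, was found in the window of Dusp5 alone (3.45%, against 1.47% of all windows). The AP-1 site TGANTCA was found in 0 of the 29 (5.86% of all windows). A match is only a match of letters, and sites farther from the start are not in these windows. The 5 windows shown are those of Fos, Npas4, Dusp1 and Nr4a1, whose core sites stand in capitals, and of Gadd45g, which holds none although its level tracked that of Fos closely over neurons.
Fos, chr12:85473640-85473939, plus strand: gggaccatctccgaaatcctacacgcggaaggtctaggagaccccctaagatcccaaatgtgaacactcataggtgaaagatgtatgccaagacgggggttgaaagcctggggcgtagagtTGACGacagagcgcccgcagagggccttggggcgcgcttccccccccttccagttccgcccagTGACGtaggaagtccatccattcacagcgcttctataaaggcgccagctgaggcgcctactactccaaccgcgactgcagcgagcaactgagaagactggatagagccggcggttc
Npas4, chr19:4989922-4990221, minus strand: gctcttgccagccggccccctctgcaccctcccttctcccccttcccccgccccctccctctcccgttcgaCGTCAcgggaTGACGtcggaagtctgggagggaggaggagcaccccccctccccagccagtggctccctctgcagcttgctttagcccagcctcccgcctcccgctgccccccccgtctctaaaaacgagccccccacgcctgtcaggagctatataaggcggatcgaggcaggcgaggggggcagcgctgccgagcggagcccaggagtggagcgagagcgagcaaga
Dusp1, chr17:26508423-26508722, minus strand: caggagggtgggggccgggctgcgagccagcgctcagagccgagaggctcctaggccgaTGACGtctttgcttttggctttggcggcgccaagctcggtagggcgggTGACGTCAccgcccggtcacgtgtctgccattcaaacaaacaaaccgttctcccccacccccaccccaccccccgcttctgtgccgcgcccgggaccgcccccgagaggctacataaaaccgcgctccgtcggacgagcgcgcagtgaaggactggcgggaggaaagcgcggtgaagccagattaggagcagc
Nr4a1, chr15:101266596-101266895, plus strand: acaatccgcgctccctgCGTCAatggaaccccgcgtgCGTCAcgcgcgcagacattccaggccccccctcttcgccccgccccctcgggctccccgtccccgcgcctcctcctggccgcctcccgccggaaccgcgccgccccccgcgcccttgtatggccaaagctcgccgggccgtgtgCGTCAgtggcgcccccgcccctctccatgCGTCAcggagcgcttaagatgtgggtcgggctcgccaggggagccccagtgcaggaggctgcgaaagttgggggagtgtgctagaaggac
Gadd45g, chr13:51846425-51846724, plus strand: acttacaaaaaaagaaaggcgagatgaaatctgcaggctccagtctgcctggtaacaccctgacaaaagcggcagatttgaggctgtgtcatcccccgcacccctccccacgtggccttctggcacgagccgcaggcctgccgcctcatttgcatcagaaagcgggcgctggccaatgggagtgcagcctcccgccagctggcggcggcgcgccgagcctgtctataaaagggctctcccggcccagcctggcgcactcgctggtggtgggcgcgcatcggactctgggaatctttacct

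Most neurons carried a few of the early genes. The median neuron was positive for 4 of the 39, with quartiles of 3 and 6 and a highest number of 16. Only 14 neurons (1.73%) were positive for none, and 57 (7.04%) were positive for 10 or more. The summed level of all 39 had a median of 14.5 counts per 10000. Gadd45g, Rgs2, Junb and Fos supplied 59.5% of the counts in that sum, and Gadd45g alone 22.5%. Neurons with 10 or more early genes occurred in each of the 9 samples, from 2 neurons in sample 9 to 8 neurons in samples 1, 3 and 4. Among these 57 neurons Fos was positive in 89.5%, against 32.0% of the other neurons, and Arc in 29.8% against 2.79%. These shares follow in part from how the 57 were picked and are a description only.

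The AP-1 factors are leucine zipper proteins that bind DNA as pairs of a Fos and a Jun relative. Fos, the founding member, was positive in 36.0% of the neurons, and its level was lowest at 132, in the middle at 184 and highest at 278 CPM (counts of the gene per 1000000 gene counts) over the 9 samples. Junb, a Jun relative, was positive in 60.0% and ran from 177 to 280 CPM with a median of 228. Jun, the most common partner of Fos, was positive in 27.3% and had 60.4, 87.8 and 151 CPM as its lowest, median and highest sample values. These 3 genes had counts in every sample. Fosb, whose product resembles that of Fos, was positive in 9.01% (17.6, 27.4 and 33.8 CPM), and Fosl2, a Fos-related gene, in 3.21% (2.85, 7.62 and 16.1 CPM). Jund, which many cells make without a stimulus, had a count in 35.2% of the neurons but reached the positive level in only 1.48%. Fosl1, a Fos relative of growth-stimulated cells, had 4 counts in all, Atf3, a stress-induced partner of the family, had 16, and Maff, a small Maf factor, had 75. None of the 810 neurons was positive for Fosl1 or Atf3, a count of 0 that still permits 0.370% of neurons by counting error alone.

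The Egr genes encode zinc finger factors induced through SRF and its Elk partners. Egr1 was positive in 41.6% of the neurons, with 102, 144 and 197 CPM as lowest, median and highest sample values. Egr4 was positive in 28.4% (59.0, 68.8 and 126 CPM) and Egr2 in 1.85% (0, 4.11 and 9.45 CPM). Egr3 had 2 counts over all 810 neurons, so within this family Egr1 and Egr4 carried nearly all counts and Egr3 was at the limit of detection. Npas4, a factor induced in neurons by calcium entry, was positive in 13% of the neurons and had 25.4, 42.6 and 65.2 CPM. Among the Nr4a genes, which encode nuclear receptors without a known natural ligand, Nr4a1 was positive in 1.73% (3.15, 5.76 and 15.1 CPM), Nr4a3 in 1.48%, and Nr4a2 in 0 of 810 with 23 counts. Of the Klf zinc finger factors, Klf6 was positive in 26.3% (57.6, 68.8 and 88.8 CPM) and Klf4 in 1.36% (1.11, 4.32 and 15.8 CPM). Klf10 was positive in 3.58%, and Klf2, known from endothelial cells, had 60 counts in all.

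The feedback regulators end or tune the signals that switch on early genes. Rgs2, which shuts off G proteins of the Gq kind, was positive in 66.2% of the neurons and had the smallest relative spread of the well detected members, at 251, 290 and 301 CPM with a coefficient of variation (CV) of 6.59%. Dusp1, a phosphatase of mitogen-activated protein kinases, was positive in 9.88% (11.5, 30.2 and 38.4 CPM). Dusp6, a phosphatase of the kinase ERK, was positive in 11.2% (16.2, 27.7 and 43.3 CPM). Each of these 3 had counts in every sample. Per1, a clock gene that CREB also induces, was positive in 10.9%, Nfkbiz, a nuclear regulator of NF-kB, in 3.70% (3.23, 8.92 and 18.4 CPM), Dusp5, another phosphatase of ERK, in 3.09%, Trib1, a pseudokinase, in 2.47% (3.03, 4.79 and 11.4 CPM), and Sik1, a kinase that holds back the CREB coactivators, in 1.48%.

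Of the small response genes, Gadd45g, named for growth arrest and DNA damage and a partner of stress kinases, was positive in 67.3% of the neurons (275, 444 and 556 CPM). Its relative Gadd45b was positive in 4.20% (5.45, 9.27 and 25.6 CPM). Btg2, an antiproliferative gene, was positive in 10.6%, Ier5 in 3.33%, Ier3 in 2.59% and Ier2 in 0.370%. Among the synaptic effectors, Arc, whose product drives removal of AMPA receptors from synapses, was positive in 4.69% (5.25, 10.8 and 28.2 CPM). Homer1, a postsynaptic scaffold gene, was positive in 20.0%, and counts per symbol do not separate its short, activity-induced form from the long one. Nptx2, a secreted pentraxin that gathers AMPA receptors, was positive in 3.21%, and Ptgs2, the inducible cyclooxygenase, in 0.741%. For the rarest genes a few cells decide the level, since the 8 neurons with the most counts held 98.8% of the Ptgs2 counts, 97.9% of those of Ier2 and 93.3% of those of Klf2, against 11.5% for Fos.

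**Figure D1:**
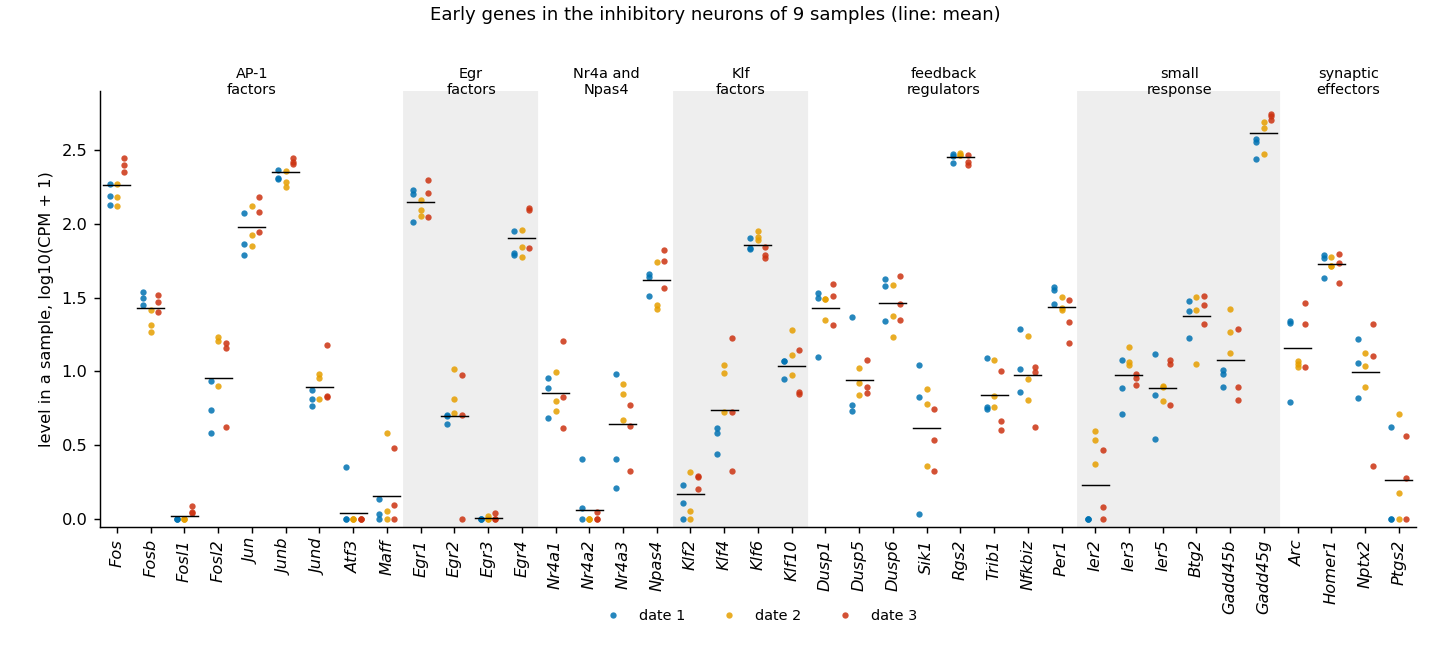
Level of each of the 39 early genes in the inhibitory neurons of 9 samples, as log10(CPM + 1) on the vertical axis, with 1 point per sample coloured by date field, a line at the mean, and genes grouped by role. Fosl1, Egr3, Nr4a2 and Atf3 lie at or near 0, and the date 3 points of Fos and Gadd45g lie above those of dates 1 and 2.

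The early genes had a larger median spread between samples than all genes above the same level, a difference that was not tested, and Fos was highest at date 3. Over the 19 members with a mean of at least 10 CPM the median CV was 30.1%, from 6.59% for Rgs2 to 55.2% for Gadd45b, against a median of 20.9% over all 8957 genes at that level. The Fos level was 157 ± 26.0 CPM at date 1, 156 ± 26.4 CPM at date 2 and 251 ± 27.2 CPM at date 3 (mean ± SD, n = 3 samples each). All 3 samples of date 3, with 224 to 278 CPM, were above the 6 others, with 132 to 184 CPM. Gadd45g was at 335 ± 52.8 CPM, 409 ± 102 CPM and 533 ± 26.8 CPM at dates 1, 2 and 3, and Junb at 211 ± 16.6 CPM, 199 ± 26.3 CPM and 265 ± 14.2 CPM. For both genes the 3 samples of date 3 were also above the other 6. Egr1 at 143 ± 36.0, 127 ± 16.6 and 156 ± 43.2 CPM, Npas4 at 39.4 ± 7.17, 35.6 ± 16.2 and 51.9 ± 15.1 CPM, Arc at 15.5 ± 8.86, 10.3 ± 0.522 and 19.3 ± 9.20 CPM and Nr4a1 at 6.22 ± 2.13, 6.23 ± 2.41 and 8.01 ± 6.30 CPM showed dates that overlapped.

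With edgeR's quasi-likelihood test over the 9 samples, with animal number as a covariate and Benjamini-Hochberg adjustment over 13944 genes, 0 of 34 tested members passed for the date field at an adjusted p under 0.05 (0.0143% of all genes passed, 2 in number). At an unadjusted p under 0.05 there were 4 (8.14% of all genes), namely Fos, Gadd45g, Junb and Ier2, and DESeq2 called 2. Fos had a log2 difference of 0.71 between dates 3 and 1 with an adjusted p of 0.246 in edgeR, Gadd45g 0.70 and Junb 0.36, both with an adjusted p of 0.469. For the animal number 0 of 34 passed in edgeR (0% of all genes), 3 had an unadjusted p under 0.05 (3.79% of all genes), namely Fos, Nfkbiz and Btg2, and DESeq2 called 0. Median depth was also lowest at date 3, at 96675 to 108895 counts per neuron against 114124 to 227570 in the samples of dates 1 and 2, and the part of depth in the date values was not tested beyond thinning. With each neuron thinned to 50000 counts the number of members passing for the date field was again 0 in edgeR.

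Over the neurons of a sample, a core of early genes went up and down together. For each sample the Spearman correlation was taken over its neurons, with total counts and detected genes regressed out of the ranks, and averaged over the 9 samples. The closest pair was Fos with Gadd45g, with a mean rho of 0.49 ± 0.098 (SD, n = 9 samples) and from 0.33 to 0.62 over samples. Fos with Junb followed at 0.46 ± 0.122, Junb with Gadd45g at 0.43 ± 0.0786, Junb with Egr1 at 0.39 ± 0.107, Fos with Egr1 at 0.38 ± 0.118, Fos with Npas4 at 0.38 ± 0.107 and Fos with Fosb at 0.37 ± 0.0866. Each of these 7 pairs was above 0 in 9 of 9 samples. As whole neurons, 250 were positive for both Fos and Gadd45g, where independence would give 198, and 75 for both Fos and Npas4, where it would give 38.8.

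The 22 members with a count in at least 10% of the neurons form 231 pairs, and their median rho was 0.0799, against 0.00383 over all 9904 genes detected as often. Of the 231 pairs, 44 (19%) were above 0.2, against 0.0427% of all gene pairs, and 102 (44.2%) were above 0.1, against 1.05%. In 58 pairs rho was above 0 in every sample. All of these are descriptions over cells that share a library and a dissection, and neurons of 1 sample are not replicates. Pairs of the same role group were no closer than the others, with a median of 0.0726 over 30 pairs within a role against 0.0799 over 201 pairs across roles.

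The core held members of 5 role groups. Mean rho with the 21 other members was 0.20 for Fos, 0.20 for Junb, 0.19 for Gadd45g, 0.17 for Egr1, 0.17 for Npas4, 0.16 for Fosb, 0.15 for Dusp1 and 0.15 for Egr4. Arc was at 0.12, closest to Npas4 (0.24), and Nr4a1 at 0.12, closest to Fosl2 (0.24). Dusp6, Jun and Btg2 lay at 0.11, 0.10 and 0.092. Klf10 (0.0070), Jund (0.013), Gadd45b (0.022) and Rgs2 (0.028) stood apart from the rest, although Rgs2 was found in most neurons. So the 2 Gadd45 genes behaved differently, Gadd45g inside the core and Gadd45b outside it.

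**Figure D2:**
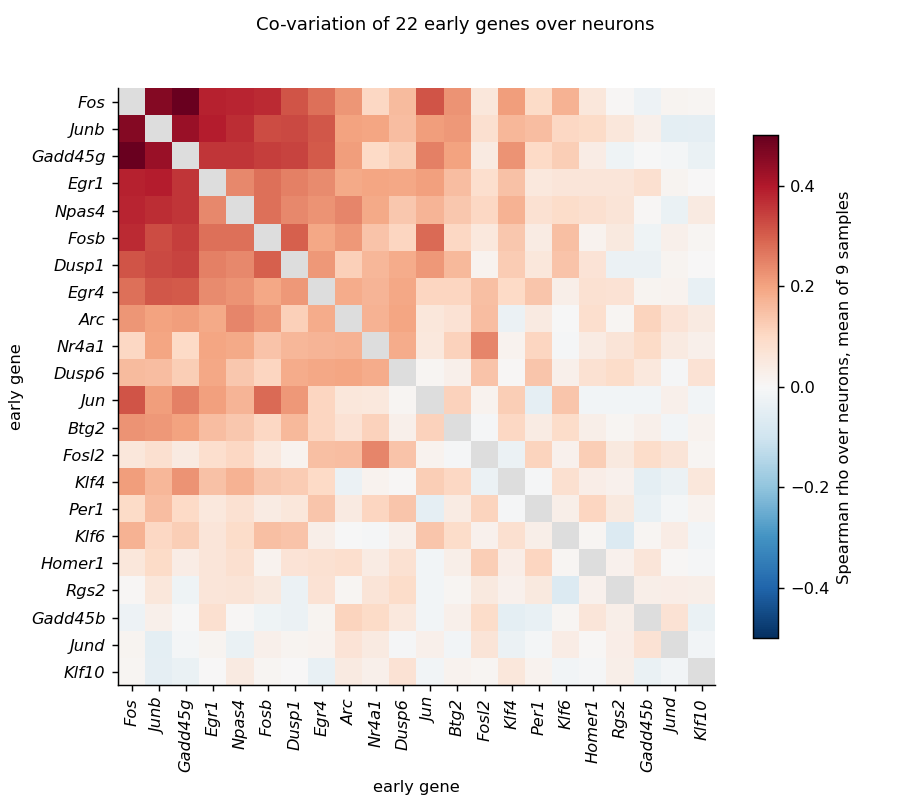
Mean Spearman correlation over 9 samples for each pair of the 22 early genes detected in at least 10% of the neurons, on both axes in the order of each gene's mean correlation with the others, from blue (below 0) to red (above 0) with the diagonal in grey. A block of red runs from Fos to Egr4, with the Fos and Gadd45g pair at 0.49, and the rows of Rgs2, Gadd45b, Jund and Klf10 are pale.

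Within classes of neuron, the median over all 231 pairs, pooled over samples after centring in each, was 0.0747 in 343 Prkcd-positive neurons, 0.0934 in 467 Prkcd-negative neurons and 0.0908 in 148 Sst-positive neurons, against 0.0813 in all 810. The 10 closest pairs, chosen on all 810 neurons and so a description only, had medians of 0.41, 0.32 and 0.28 in those classes, an order unlike that of all pairs. Fos with Gadd45g had a rho of 0.51 in Prkcd-positive neurons, 0.40 in Prkcd-negative and 0.28 in Sst-positive neurons, and whether these differ was not tested. In the 600 neurons negative for Mbp the median of all pairs was 0.0847. Correlation of the summed early gene level with total counts was -0.057 ± 0.0494 (SD, n = 9 samples), with the share of spike-ins 0.035 ± 0.0530, with the summed oligodendrocyte genes 0.087 ± 0.148 and with mitochondrial genes 0.18 ± 0.140. The part of these in the pair values was not tested, apart from the depth that was regressed out.

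Other gene lists did not form such a core, though no test of the difference was made. The 10 heat shock and chaperone genes detected as often, which cells raise on protein damage, had a median pair rho of 0.027 over 45 pairs, with 0 pairs above 0.2 and a highest value of 0.145. The 8 delayed activity genes had a median of 0.036 with 2 of 28 pairs above 0.2, and the 14 upstream factors and coactivators a median of 0.011 with 0 of 91 above 0.2. The summed early gene level itself correlated at 0.074 ± 0.0979 with the summed heat shock genes. Between lists the closest pairs were Fosl2 with Vgf, a secreted neuropeptide precursor induced by growth factors (0.19), Egr4 with Vgf (0.19) and Junb with Plk2, a kinase gene that activity induces (0.17), of 704 cross pairs. Outside all lists, the 5 genes of 9844 whose level followed the summed early gene level most closely were Itm2c (0.36 ± 0.0627), an integral membrane protein gene, Ncdn (0.33 ± 0.0933), which encodes neurochondrin, Prkcd (0.32 ± 0.0502), which encodes protein kinase C delta, Nnat (0.32 ± 0.0785), which encodes neuronatin, and Fkbp1a (0.31 ± 0.142), which encodes an immunophilin. Each was above 0 in 9 of 9 samples (SD, n = 9).

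Prkcd marks the best known class of central amygdala neuron, and the first comparison asks whether early gene levels differ between neurons with and without it. Prkcd-positive neurons had more of most core members and of several genes outside the core. Fos was at 311 ± 71.2 CPM in Prkcd-positive neurons and 99.1 ± 52.0 CPM in Prkcd-negative neurons (SD, n = 9 samples), a log2 fold change of 1.85 ± 0.23 (SE). Gadd45b alone passed as lower in Prkcd-positive neurons, although 11 of the 31 tested members had fitted values below 0. Of the 39 members, 31 passed the filter on low counts, and 13 of these were higher (7.60% of all 11487 genes tested were) and 1 lower (9.74%, and 17.3% in either direction) at a Benjamini-Hochberg adjusted p under 0.05 in edgeR's quasi-likelihood test with the sample as a block. At an unadjusted p under 0.05 there were 14 (28.6% of all genes), and DESeq2 also called 14. The median log2 fold change was 0.56 over the 31 members and -0.02 over all genes. The levels are of summed counts, in which more positive neurons and more RNA per neuron cannot be told apart, so the share of positive neurons is given for the main genes.

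All 4 of the AP-1 factors that passed were higher in Prkcd-positive neurons. Fos had 245, 291 and 487 CPM as lowest, median and highest sample values in Prkcd-positive neurons, and 19.6, 85 and 193 CPM in Prkcd-negative neurons, without overlap. It was positive in 51.6% of the Prkcd-positive neurons and in 25.7% of the Prkcd-negative ones (means over samples). Among neurons with at least 50000 counts, thinned to that depth and pooled over samples, the shares were 50.6% and 25.3%. The thinned level had a log2 fold change of 1.73 (edgeR adjusted p = 1.47e-05). Without thinning the adjusted p was 8.32e-05 in edgeR, and Fos was higher in 9 of 9 samples. Junb had 255, 333 and 399 CPM in Prkcd-positive neurons and 112, 142 and 201 CPM in Prkcd-negative neurons, again apart, with a log2 fold change of 1.19 ± 0.10 (edgeR adjusted p = 2.29e-06). Fosb had 21.8, 39.8 and 51.4 CPM in Prkcd-positive and 11.4, 16.6 and 27.6 CPM in Prkcd-negative neurons (1.0 ± 0.24, edgeR adjusted p = 0.0106). Jun had 71.5, 103 and 231 CPM in Prkcd-positive and 47.8, 94.9 and 120 CPM in Prkcd-negative neurons (0.56 ± 0.15, edgeR adjusted p = 0.0200). The last pair of ranges overlap widely, and Jun no longer passed without sample 4 or without sample 6, at a highest adjusted p of 0.0583. Without the Mbp-positive neurons Jun did not pass either (edgeR adjusted p = 0.153). Fosl2 and Jund did not pass.

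The Egr genes that were tested were all higher in Prkcd-positive neurons. Egr1 had 122, 166 and 268 CPM in Prkcd-positive neurons and 66.2, 124 and 146 CPM in Prkcd-negative neurons (0.73 ± 0.12, edgeR adjusted p = 0.000752, higher in 8 of 9 samples). Egr4 had 79.7, 89.8 and 185 CPM in Prkcd-positive and 35.9, 62.1 and 90.8 CPM in Prkcd-negative neurons (1.0 ± 0.12, edgeR adjusted p = 4.45e-05). For both genes the ranges overlap, and Egr4 was higher in 9 of 9 samples. Egr2 was rare, with 538 counts in Prkcd-positive neurons and 62 in Prkcd-negative ones (4.36 ± 1.0, edgeR adjusted p = 0.00841, higher in 8 of 9 samples). Npas4 had 35.1, 56.6 and 81.7 CPM in Prkcd-positive and 12.8, 33.4 and 50.5 CPM in Prkcd-negative neurons (1.11 ± 0.20, edgeR adjusted p = 0.00141). It was positive in 17.4% of Prkcd-positive and 9.80% of Prkcd-negative neurons. Nr4a1 had 0.697, 5.41 and 10 CPM in Prkcd-positive and 1.61, 6.82 and 21.1 CPM in Prkcd-negative neurons and did not pass (-0.58 ± 0.64, edgeR adjusted p = 0.611).

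Klf6, Klf4, Dusp1 and Nfkbiz were higher as well. Klf6 had 80.2, 106 and 152 CPM in Prkcd-positive and 20.7, 53.4 and 70.4 CPM in Prkcd-negative neurons, without overlap (1.22 ± 0.20, edgeR adjusted p = 0.000657). Klf4 had 2.22, 9.14 and 30.1 CPM in Prkcd-positive and 0.185, 0.996 and 7.39 CPM in Prkcd-negative neurons (2.80 ± 0.50, edgeR adjusted p = 0.00139). Dusp1 had 17.4, 38.4 and 68.7 CPM in Prkcd-positive and 5.55, 19.5 and 26.4 CPM in Prkcd-negative neurons (1.30 ± 0.26, edgeR adjusted p = 0.00302). These 3 genes were higher in 9 of 9 samples. Nfkbiz was almost absent outside the class, with 3.99, 19.5 and 39.4 CPM in Prkcd-positive and 0, 0.918 and 2.60 CPM in Prkcd-negative neurons and positive shares of 8.81% and 0.227% (4.44 ± 0.88, edgeR adjusted p = 0.00295). Rgs2, Per1, Dusp5, Dusp6, Sik1 and Trib1 did not pass.

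The Gadd45 genes moved in opposite directions. Gadd45g had 407, 684 and 829 CPM in Prkcd-positive neurons and 142, 294 and 361 CPM in Prkcd-negative neurons (1.20 ± 0.07, edgeR adjusted p = 8.06e-08), higher in 9 of 9 samples. Gadd45b had 0.116, 1.40 and 8.81 CPM in Prkcd-positive neurons and 9.41, 15.7 and 33.4 CPM in Prkcd-negative neurons (-3.34 ± 0.62, edgeR adjusted p = 0.00187), lower in 9 of 9. In neither gene did the classes overlap. Gadd45b was positive in 0.585% of Prkcd-positive and 6.75% of Prkcd-negative neurons. Of the synaptic effectors none passed, and Arc had 4.31, 8.65 and 27.2 CPM in Prkcd-positive and 3.70, 14.2 and 31.3 CPM in Prkcd-negative neurons (-0.39 ± 0.31, edgeR adjusted p = 0.463). Atf3 had 16 counts in Prkcd-positive neurons and 0 in Prkcd-negative ones, but all came from 2 neurons of sample 1.

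**Figure D3:**
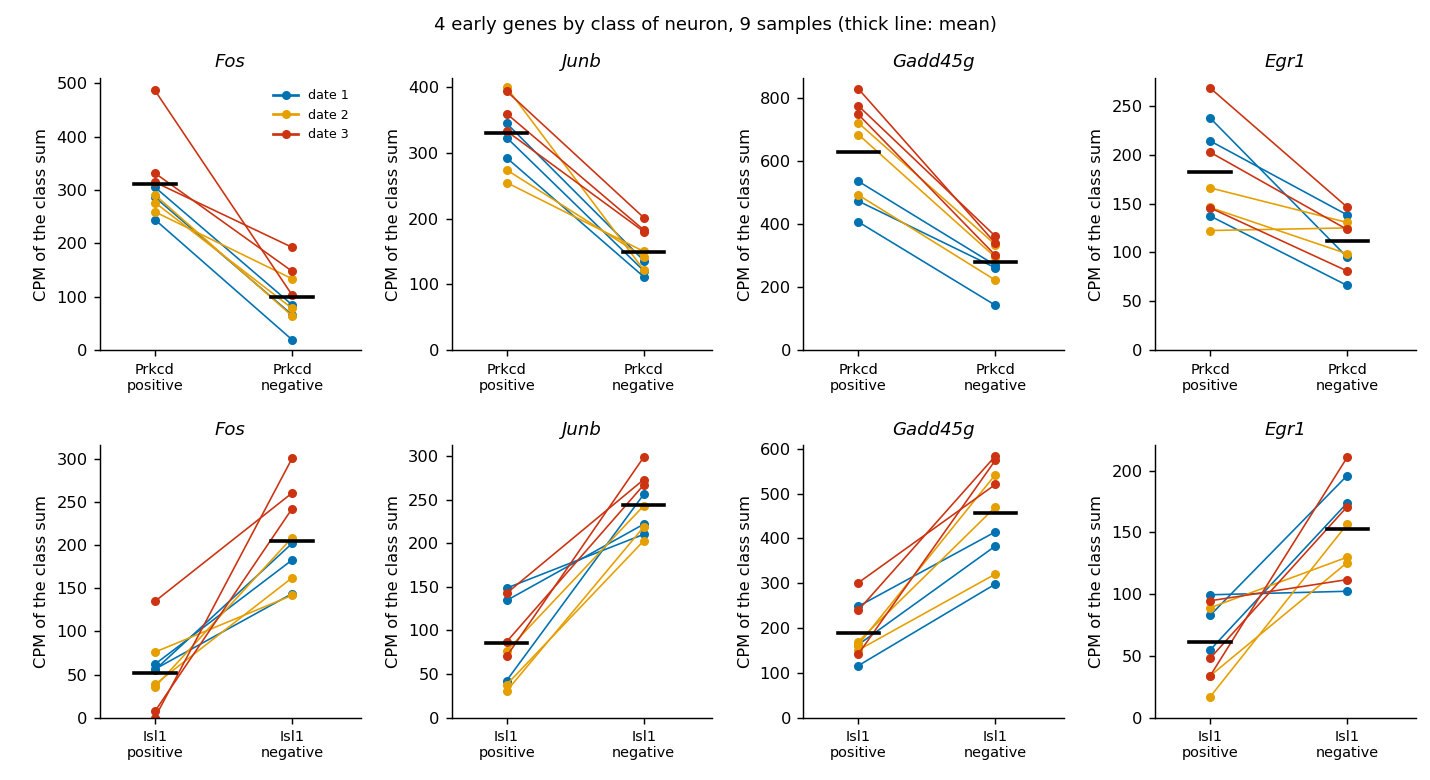
CPM of the summed counts of Fos, Junb, Gadd45g and Egr1 in each of 9 samples, joined by a line between Prkcd-positive and Prkcd-negative neurons (upper row) and between Isl1-positive and Isl1-negative neurons (lower row), coloured by date field, with thick lines at the means. The lines slope down from Prkcd-positive neurons in 9 of 9 samples for Fos, Junb and Gadd45g, and up from Isl1-positive neurons in 9 of 9 samples for all 4 genes.

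Counted per neuron, Prkcd-positive neurons were positive for 5.69 ± 0.420 of the 39 early genes and Prkcd-negative neurons for 4.22 ± 0.397 (mean of sample means ± SD, n = 9), and 9.33% and 5.35% of them were positive for 10 or more. Depth was close, at medians of 120868 counts in Prkcd-positive and 130131 in Prkcd-negative neurons. Mbp was positive in 30.9% of Prkcd-positive and 22.3% of Prkcd-negative neurons, and the 7 oligodendrocyte genes together ran from 139 to 236 CPM and from 68.0 to 4692 CPM over samples, higher in Prkcd-positive neurons in 8 of 9, with 0 of the 7 at 0 counts in either class. The highest value is from sample 5, whose neurons together had 2982 CPM of these genes against 104 to 144 CPM in the other 8 samples, and 1 of the 7 genes was higher in Prkcd-positive neurons by its mean. Without the Mbp-positive neurons, a setting chosen after the data were seen, 12 members were higher and 1 lower. Fos differed in the same direction at each date alone, with log2 fold changes of 2.49, 1.69 and 1.39 at dates 1, 2 and 3. With class by date terms 0 members passed in any of the 5 class comparisons in edgeR (0% to 0.00871% of all genes), while 1 to 3 had an unadjusted p under 0.05 (3.39% to 4.11% of all genes). DESeq2 was not run for these terms.

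Among related lists, the delayed activity genes had 3 of 12 tested members higher and 0 lower in Prkcd-positive neurons, namely Bdnf, Vgf and Scg2. Bdnf, brain-derived neurotrophic factor, was at 36.5 ± 17 CPM in Prkcd-positive and 2.73 ± 4.90 CPM in Prkcd-negative neurons (4.86 ± 0.87, edgeR adjusted p = 0.00137). Vgf was at 171 ± 26.2 and 93.2 ± 30.3 CPM (0.96 ± 0.17, edgeR adjusted p = 0.00163). Of 11 heat shock and chaperone genes 2 were higher and 1 lower. The endoplasmic reticulum chaperone gene Hspa5 was at 666 ± 99.9 CPM in Prkcd-positive and 513 ± 75 CPM in Prkcd-negative neurons (0.40 ± 0.07, edgeR adjusted p = 0.00107), and the co-chaperone gene Dnaja1 at 218 ± 33.3 and 274 ± 33.2 CPM (-0.31 ± 0.07, edgeR adjusted p = 0.00715). Of 14 upstream factors 1 was higher and 1 lower, both of the Mef2 family that drives activity-dependent genes. Mef2a was at 255 ± 28.8 and 150 ± 38.4 CPM (0.82 ± 0.11, edgeR adjusted p = 0.000157) and Mef2c at 22.7 ± 10.9 and 111 ± 25.3 CPM (-2.39 ± 0.33, edgeR adjusted p = 0.000180) in Prkcd-positive and Prkcd-negative neurons.

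Sst, the somatostatin gene, marks a second class, and 125 of its 148 positive neurons were negative for Prkcd, so this comparison overlaps the one above. Sst-positive neurons had more Dusp6 and Egr4 and less Fos and Nfkbiz than the other 662. Of 30 members tested, 2 were higher (2.26% of all 11355 genes were) and 2 lower (2.26%), 4 in all (4.53% of all genes), 14 had an unadjusted p under 0.05 (16.1% of all genes), and DESeq2 called 11. The median log2 fold change was -0.31 over the members and -0.17 over all genes. Dusp6 had 24.6, 61.4 and 165 CPM in Sst-positive neurons and 8.38, 20.4 and 32.3 CPM in Sst-negative neurons (1.75 ± 0.31, edgeR adjusted p = 0.00598), higher in 9 of 9 samples with positive shares of 27.6% and 7.94%. Egr4 had 68.7, 117 and 145 CPM in Sst-positive and 52.7, 56.9 and 124 CPM in Sst-negative neurons (0.68 ± 0.15, edgeR adjusted p = 0.0179). Fos had 5.30, 90.8 and 191 CPM in Sst-positive and 145, 201 and 288 CPM in Sst-negative neurons (-1.38 ± 0.31, edgeR adjusted p = 0.0196). Each of these 3 moved the same way in 9 of 9 samples with ranges that overlap. Nfkbiz had 7 counts in the Sst-positive neurons and 1145 in the others (-5.79 ± 0.91, edgeR adjusted p = 0.00262).

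Arc had 8.68, 21.0 and 43.3 CPM in Sst-positive and 4.44, 9.87 and 26.2 CPM in Sst-negative neurons, higher in 9 of 9 samples, and did not pass (0.99 ± 0.33, edgeR adjusted p = 0.129). Egr1 (-0.55 ± 0.19, adjusted p = 0.158), Npas4 (-0.16 ± 0.22, adjusted p = 0.776) and Nr4a1 (0.99 ± 0.64, adjusted p = 0.484) did not pass in edgeR either. Over neurons the number of early genes positive was 4.83 ± 0.747 in Sst-positive and 4.86 ± 0.251 in Sst-negative neurons (SD, n = 9), a difference of -0.027 ± 0.666 that was smaller than the spread between samples. Among the delayed genes, 3 were higher and 2 lower of 12. Bdnf had 22 counts in Sst-positive neurons and 1714 in Sst-negative ones (-5.17 ± 0.98, edgeR adjusted p = 0.00774), and Vgf was at 194 ± 59.5 and 113 ± 18 CPM (0.78 ± 0.17, edgeR adjusted p = 0.0162). The calls depended on which neurons were used. Without the Mbp-positive neurons only Nfkbiz passed, and among Prkcd-negative neurons alone only Egr4, both settings chosen after the data were seen. Nfkbiz was not among the genes tested in the Prkcd-negative neurons. Among those Prkcd-negative neurons Fos had a log2 fold change of -0.25 (edgeR adjusted p = 0.717). Egr4 was lost without sample 1 (adjusted p = 0.0508, from 0.0203 over the fits with a sample left out) and Fos without sample 8 (0.0528, from 0.00178). Mbp was positive in 33.8% of Sst-positive and 24.2% of Sst-negative neurons.

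Set directly against each other, 320 neurons positive for Prkcd and not Sst had more Fos, Junb, Gadd45g, Egr1, Klf6, Jun, Klf4 and Nfkbiz than 125 neurons positive for Sst and not Prkcd, and less Gadd45b, Dusp6 and Fosl2. These are 8 members higher (4.38% of all 10398 genes were) and 3 lower (4.06%) of 29 tested, 11 in either direction (8.43%), with a median log2 fold change of 0.68 over the members and 0.16 over all genes. At an unadjusted p under 0.05 there were 14 (20.2% of all genes), and DESeq2 called 15. Fos had 266, 321 and 492 CPM in Prkcd-only neurons and 6.68, 79.2 and 163 CPM in Sst-only neurons (2.08 ± 0.31, edgeR adjusted p = 0.000462), without overlap. Junb had 267, 356 and 416 CPM in Prkcd-only and 106, 147 and 283 CPM in Sst-only neurons (0.98 ± 0.16, edgeR adjusted p = 0.00123), and Gadd45g had 440, 695 and 829 CPM against 192, 278 and 586 CPM (1.05 ± 0.18, edgeR adjusted p = 0.00149). All 3 were higher in 9 of 9 samples. Egr1 had 139, 172 and 268 CPM in Prkcd-only and 35.2, 136 and 183 CPM in Sst-only neurons (0.81 ± 0.20, edgeR adjusted p = 0.0205). Nfkbiz had 1070 counts in Prkcd-only neurons and 4 in Sst-only neurons (6.86 ± 0.85, edgeR adjusted p = 0.000105).

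In the other direction, Gadd45b had 0.124, 1.19 and 9.37 CPM in Prkcd-only neurons and 10.4, 23.7 and 36.9 CPM in Sst-only neurons, without overlap (-4.22 ± 0.75, edgeR adjusted p = 0.00214). Dusp6 had 6.04, 28.7 and 45.1 CPM in Prkcd-only and 13.3, 61.4 and 165 CPM in Sst-only neurons (-1.45 ± 0.35, edgeR adjusted p = 0.0169), lower in 7 of 9 samples. Fosl2 had 0.712, 4.20 and 14.8 CPM in Prkcd-only and 4.22, 27.5 and 70.7 CPM in Sst-only neurons (-2.44 ± 0.69, edgeR adjusted p = 0.0400). The last pair of ranges overlap, and with a sample left out Fosl2 kept an adjusted p under 0.05 in only 2 of 9 fits. Klf6 had 71.7, 105 and 152 CPM in Prkcd-only and 36.8, 58.2 and 93.3 CPM in Sst-only neurons (0.82 ± 0.22, edgeR adjusted p = 0.0302). Jun had 71.7, 119 and 231 CPM against 0, 42.2 and 167 CPM (1.69 ± 0.47, edgeR adjusted p = 0.0378), and Klf4 2.37, 9.14 and 33.1 CPM against 0, 0.717 and 31.5 CPM (3.30 ± 0.95, edgeR adjusted p = 0.0443). These 3 genes passed in 3, 3 and 1 of the 9 fits with a sample left out, at highest adjusted p of 0.0839, 0.0935 and 0.103. Dusp6 was lost without sample 8. Npas4 (0.68 ± 0.25, adjusted p = 0.113), Arc (-1.18 ± 0.44, adjusted p = 0.132) and Nr4a1 (-1.43 ± 0.90, adjusted p = 0.412) did not pass in edgeR. Ptgs2, detected in 10 of all 810 neurons, had 35 counts in Prkcd-only and 0 in Sst-only neurons, too few neurons to compare.

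Among the related lists Bdnf was again higher, at 39.2 ± 17.8 CPM in Prkcd-only neurons and 1.18 ± 2.47 CPM in Sst-only neurons (6.24 ± 0.88, edgeR adjusted p = 0.000323). Bhlhe40, a repressor of the clock that activity induces, was lower in Prkcd-only neurons, at 29.8 ± 10.4 against 66.2 ± 20.3 CPM (-1.19 ± 0.33, edgeR adjusted p = 0.0374). Those are the 2 of 11 delayed genes that passed. Hspa5 was higher, alone of 10 heat shock genes (0.58 ± 0.12, edgeR adjusted p = 0.00479), and Mef2c lower, alone of 14 upstream factors (-2.32 ± 0.47, edgeR adjusted p = 0.00574). The number of early members passing was 7 with positive cells set at 3 counts per 10000, 7 after thinning, 5 without the Mbp-positive neurons (8 samples), and 7 without sample 2, 3, 4 or 8. Those lost without the Mbp-positive neurons were Egr1 (edgeR adjusted p = 0.362), Dusp6, Fosl2, Jun, Klf4 and Klf6.

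Isl1 encodes a LIM homeodomain factor of developing striatal neurons, and neurons positive for it carried the fewest early genes. Of 28 members tested 0 were higher (1.70% of all 11169 genes were) and 6 lower (3.15%; either direction 4.85%) in 76 Isl1-positive neurons than in 734 Isl1-negative ones, namely Gadd45g, Junb, Npas4, Egr1, Trib1 and Fos. At an unadjusted p under 0.05 there were 17 (20.2% of all genes), and DESeq2 called 20, all lower. The median log2 fold change was -1.82 over the members and -0.34 over all genes, and 26 of the 28 members lay below 0. The class is small, and genes with few or no counts in it get negative fitted values, so both medians are given.

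Gadd45g had 116, 163 and 301 CPM in Isl1-positive neurons and 298, 470 and 584 CPM in Isl1-negative neurons (-1.30 ± 0.14, edgeR adjusted p = 0.000132). Junb had 30.5, 76.4 and 148 CPM in Isl1-positive and 203, 243 and 299 CPM in Isl1-negative neurons, without overlap (-1.70 ± 0.25, edgeR adjusted p = 0.00139). Fos had 0, 55.3 and 135 CPM in Isl1-positive and 142, 202 and 301 CPM in Isl1-negative neurons (-2.19 ± 0.49, edgeR adjusted p = 0.0181). The Fos ranges are apart by a small step, and in 1 sample the Isl1-positive neurons held 0 Fos counts. Egr1 had 16.7, 54.7 and 99.5 CPM in Isl1-positive and 102, 157 and 211 CPM in Isl1-negative neurons (-1.45 ± 0.31, edgeR adjusted p = 0.0159), also apart. Npas4 had 0, 3.86 and 30.5 CPM in Isl1-positive and 29.7, 46.5 and 70.9 CPM in Isl1-negative neurons (-3.71 ± 0.77, edgeR adjusted p = 0.0131). All 5 genes were lower in 9 of 9 samples. Trib1 had 19 counts in Isl1-positive neurons and 735 in Isl1-negative ones and was lower in 8 of 9 samples (-5.31 ± 1.15, edgeR adjusted p = 0.0159). It was detected in only 41 of the 810 neurons, and the 8 with the most counts held 50.9% of them. The size of its fitted value therefore rests on few neurons.

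Arc (-1.96 ± 0.85, adjusted p = 0.213) and Nr4a1 (-3.21 ± 1.52, adjusted p = 0.252) did not pass in edgeR. Some members had no count at all in the Isl1-positive neurons. Egr2, detected in 48 of the 810 neurons, had 0 counts there and 600 in Isl1-negative neurons. With 3 counts put in place of 0 for the whole class, the counting bound was 28.9-fold lower. The 8 neurons with the most Egr2 counts held 53% of them. Most Egr2 counts lay in Prkcd-positive neurons and most Isl1-positive neurons were negative for Prkcd, so this 0 overlaps the Prkcd difference. Ptgs2, Ier2 and Klf2 also had 0 counts there, but they were detected in only 10, 11 and 12 of the 810 neurons, so their absence from 76 neurons shows little. Maff, detected in 14 neurons, had 1 count in Isl1-positive and 74 in Isl1-negative neurons, a ratio of 0.0934 (95% counting interval 0.00233 to 0.537). Nr4a2 went the other way, with 20 of its 23 counts in Isl1-positive neurons, a ratio of 46.1 (13.7 to 242). This bound and these intervals cover counting error only, counts of 1 neuron are not independent, and the Nr4a2 counts of the Isl1-positive neurons came from 1 sample.

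Per neuron, Isl1-positive neurons were positive for 3.21 ± 0.516 early genes and Isl1-negative neurons for 4.99 ± 0.300 (SD, n = 9), lower in each sample by 1.11 to 2.94 genes. None of the 76 Isl1-positive neurons was positive for 10 or more, a count of 0 that still permits 3.95% by counting error, against 57 of 734 (7.77%). The Isl1-positive neurons were the more deeply counted, at a median of 169576 counts against 123695, and held a lower share of spike-ins, 10% against 12.7%. Fos was positive in 18% of Isl1-positive and 38.0% of Isl1-negative neurons, and in 20.5% and 37.6% after thinning to equal depth. Mbp was positive in 22.4% of Isl1-positive and 26.3% of Isl1-negative neurons, and the 7 oligodendrocyte genes ran from 51.0 to 149 CPM and from 101 to 3256 CPM, with Mog at 0 counts in the Isl1-positive class. Without the Mbp-positive neurons 5 members were lower.

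**Figure D4:**
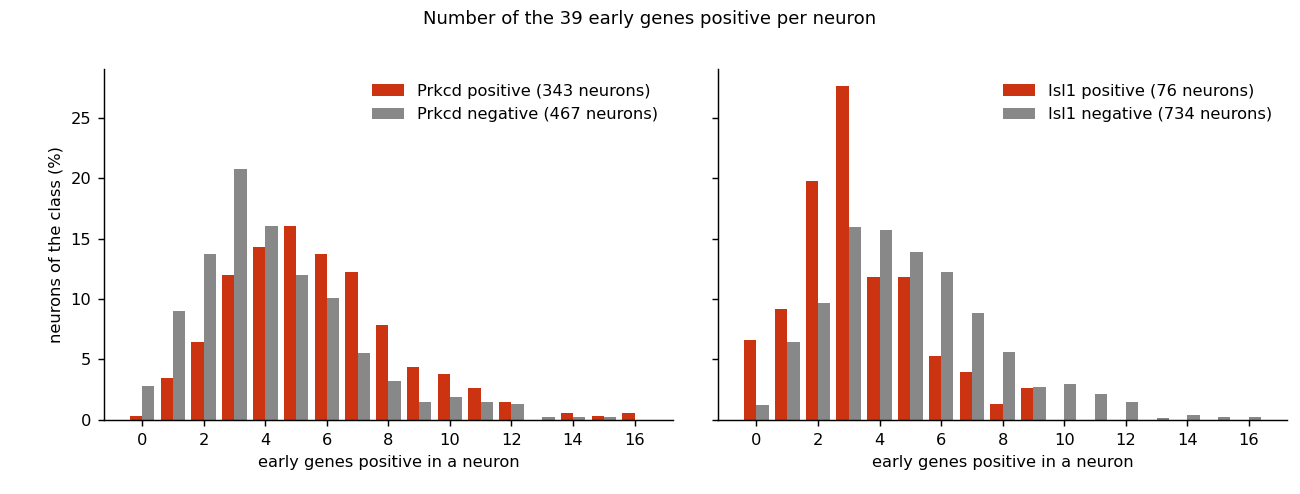
Share of neurons of a class (percent, vertical axis) by the number of the 39 early genes positive in the neuron (horizontal axis), for 343 Prkcd-positive against 467 Prkcd-negative neurons on the left and 76 Isl1-positive against 734 Isl1-negative neurons on the right. Isl1-positive neurons reach no further than 9 genes, while 57 Isl1-negative neurons have 10 or more.

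The Isl1 difference overlaps that of Prkcd, since 64 of the 76 Isl1-positive neurons were negative for Prkcd. Among the Prkcd-negative neurons alone, 64 Isl1-positive against 403 Isl1-negative, 1 member passed, Gadd45g, at a log2 fold change of -1.10 (edgeR adjusted p = 0.0131). Fos at -2.17, Junb at -1.12 and Egr1 at -1.21 had adjusted p of 0.128, 0.0793 and 0.0944 in edgeR there. Npas4 did not pass either, and Trib1 was not among the genes tested in that setting. That setting was chosen after the data were seen. With a sample left out 6 to 10 members passed, 10 of them without sample 9. With positive cells set at 3 counts per 10000 the classes had enough cells in only 2 samples and 0 members passed in edgeR. Of the delayed genes 3 of 12 were lower and 0 higher. Plk2 was at 99.5 ± 35.7 CPM in Isl1-positive and 225 ± 19.3 CPM in Isl1-negative neurons (-1.26 ± 0.17, edgeR adjusted p = 0.000856), and Bdnf had 3 counts in Isl1-positive and 1733 in Isl1-negative neurons (edgeR adjusted p = 0.000579). Dnaja1 was higher, alone of 11 heat shock genes (0.40 ± 0.10, edgeR adjusted p = 0.0404), and Mef2a lower, alone of 14 upstream factors (-0.78 ± 0.20, edgeR adjusted p = 0.0421).

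Nr2f2 encodes a nuclear receptor of neurons that migrate from the caudal ganglionic eminence, and 1 early gene passed between neurons with and without it. The class held 7 to 17 neurons per sample, so members that did not pass are not shown to be alike. Of the members, 12 had fitted values above 0 and 17 below, some of them large, such as Trib1 (-4.26 ± 1.07, edgeR adjusted p = 0.0642). Of 29 members tested 0 were higher (0.409% of all 11008 genes were) and 1 lower (1.28%, and 1.69% in either direction) in 116 Nr2f2-positive neurons than in 694 Nr2f2-negative ones. The one was Fosl2, with 27 counts in Nr2f2-positive and 1109 in Nr2f2-negative neurons, lower in 9 of 9 samples (-4.32 ± 1.01, edgeR adjusted p = 0.0466). Fosl2 was positive in only 26 of the 810 neurons, and the 8 with the most counts held 43.6% of them, so its fitted value rests on few neurons. It passed in 1 of the 9 fits with a sample left out, that without sample 6, in which 2 members passed. It did not pass without the filter on low counts, with positive cells at 3 counts per 10000 or without the Mbp-positive neurons. At an unadjusted p under 0.05 there were 5 members (13.9% of all genes), and DESeq2 called 7. Fos had 202, 233 and 424 CPM in Nr2f2-positive neurons and 117, 161 and 273 CPM in Nr2f2-negative neurons, higher in 8 of 9 samples, and did not pass (0.59 ± 0.15, edgeR adjusted p = 0.0745). Egr1 (0.37 ± 0.19, adjusted p = 0.412), Npas4 (0.10 ± 0.32, adjusted p = 0.917), Arc (-0.92 ± 0.71, adjusted p = 0.605) and Nr4a1 (-1.54 ± 1.18, adjusted p = 0.595) did not pass in edgeR. Neurons of the Nr2f2-positive class were positive for 5.10 ± 0.513 early genes and those of the Nr2f2-negative class for 4.79 ± 0.283 (SD, n = 9), with 0.31 ± 0.462 between them.

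**Figure D5:**
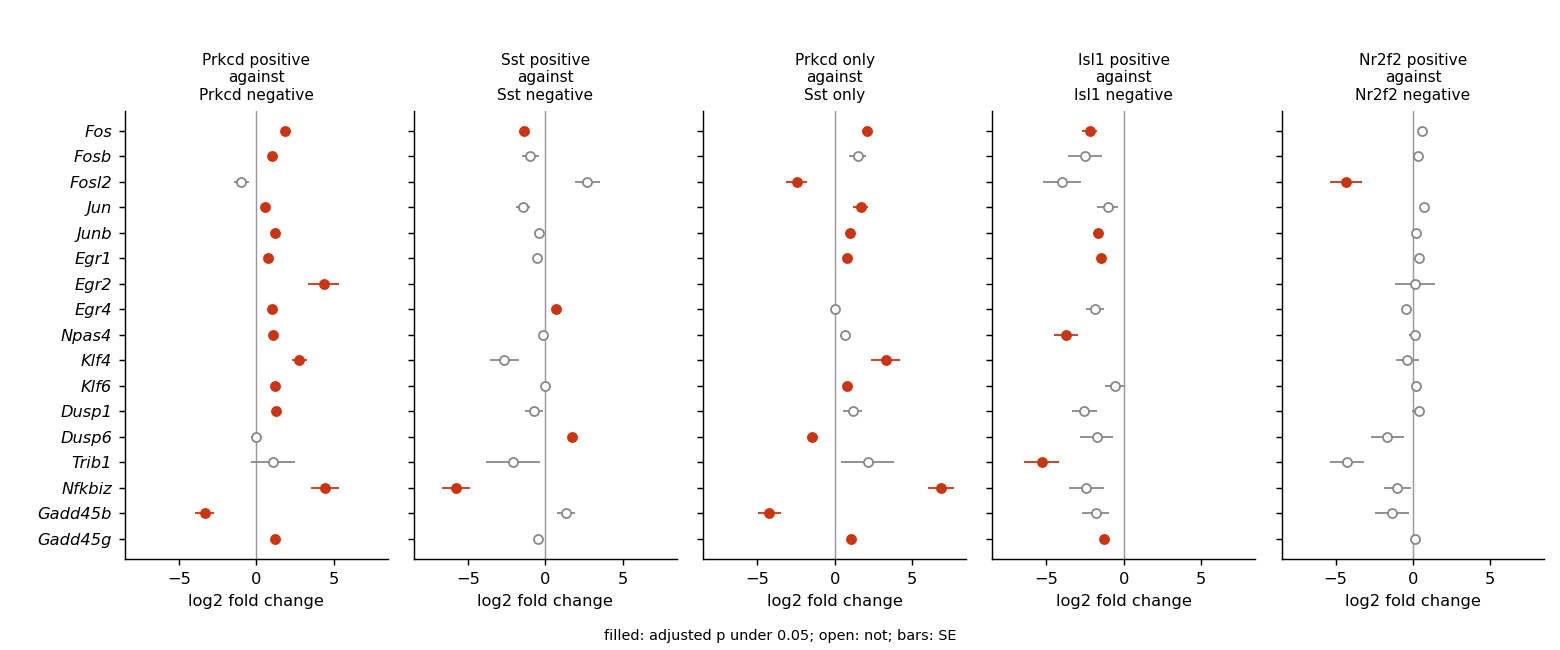
Log2 fold change with SE of the 17 early genes that passed in at least 1 of 5 class comparisons, 1 panel per comparison, with filled red points where the edgeR adjusted p is under 0.05 and open grey points where it is not. Fos lies at 1.85 for Prkcd, -1.38 for Sst, 2.08 for Prkcd only against Sst only, -2.19 for Isl1 and 0.59 for Nr2f2, and a gene without a point was not tested in that comparison.

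Across the 5 class comparisons, which share neurons and samples, 17 members passed at least once. Another 14 were tested in 2 to 5 of the comparisons and passed in none, namely Jund, Nr4a1, Nr4a3, Klf10, Dusp5, Sik1, Rgs2, Per1, Ier3, Ier5, Btg2, Arc, Homer1 and Nptx2, and the remaining 8 members were too rare to be tested. Fos passed in 4 comparisons, and Junb, Gadd45g, Egr1 and Nfkbiz in 3 each. Dusp6 was higher in Sst-positive neurons, where Fos was lower.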

How the data were processed

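The deposited table holds whole-number read counts per gene and cell made by the authors, with spike-in (ERCC) rows, and a second deposited table gives each cell's animal number, date field and barcode. The genome build NCBIM37 and the tool Seurat are named in the submitters' processing notes. The aligner was not given in the sources used here, and neither was any merging of molecule copies. Counting intervals cover counting error only. Spike-in rows (91) were left out of all totals.

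Inhibitory neurons (810 of 829 cells) were chosen by the positive level of the marker genes named in the results, and no doublet caller was run. Median depth was 126576 counts per neuron. Counts were summed per sample and class (at least 5 neurons each), and CPM are per 1000000 gene counts of that sum. Classes were tested with edgeR 4.0.16 in R 4.3.3 (TMM, filterByExpr, quasi-likelihood test, sample as block), and the date field and animal number over sample sums, each with the other as covariate. P-values were adjusted by Benjamini-Hochberg over all genes tested, at a threshold of 0.05. The SE given with a log2 fold change is its absolute value divided by the square root of the quasi-likelihood F value. DESeq2 1.42.0 was the alternative tool, and other settings included thinning to 50000 counts, other filters and each sample left out. Fits were tested on simulated data. Correlations used scipy 1.17.1 and figures matplotlib 3.10.9.

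The members and lists were chosen by symbol, with earlier results of these data known. All 39 members are named, with full values for Fos, Egr1, Arc, Npas4, Nr4a1 and each member that passed. Outside them, up to 2 passing genes of each related list and the 5 closest genes by correlation are named.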

Additional observations from a re-analysis of the deposited data

Results flagged for a closer look

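In all, 3 early genes had 1 sample that stood apart from the other 8 by the gap between it and its nearest neighbour. Jund was at 14.1 CPM in sample 9, against a median of 5.82 CPM over the 9 samples. Nr4a1 was at 15.1 CPM in sample 8, against a median of 5.76 CPM. Dusp5 was at 22.3 CPM in sample 1, against a median of 6.87 CPM. The 3 samples are of different animal numbers or dates. In all, 34 members were checked in this way at a 95% level for each gene, with no correction for their number. Whether these gaps are more than chance was not tested. None of these 3 genes passed in a class comparison.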

How the results depend on the processing

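No called member changed direction under any setting run. The number of all genes called moved too, over the settings other than samples left out. It ran from 1373 to 2917 for Prkcd (1992 in the main fit), 200 to 1495 for Sst (514) and 411 to 1925 for Prkcd only against Sst only (877). For Isl1 it ran from 3 to 2157 (542), for Nr2f2 from 19 to 1299 (186) and for the date field from 1 to 205 (2). For Prkcd, 12 to 15 members passed under the settings that use all 9 samples, and 13 to 14 with a sample left out, where Jun was the member lost. For Sst the count was 11 with DESeq2, 1 without the Mbp-positive neurons and 1 among Prkcd-negative neurons. For Prkcd only against Sst only it was 7 with positive cells at 3 counts per 10000, 7 after thinning, 5 without the Mbp-positive neurons and 7 to 10 with a sample left out. For Isl1 it was 20 with DESeq2, 0 with positive cells at 3 counts per 10000, 1 among Prkcd-negative neurons and 6 to 10 with a sample left out. For Nr2f2 it was 7 with DESeq2, 0 to 2 with a sample left out, and 0 without the low-count filter, with positive cells at 3 counts per 10000, after thinning, without the Mbp-positive neurons and among Prkcd-negative neurons. For the date field it was 2 with DESeq2. Fewer neurons or samples entered the settings that select neurons, and the cause of the changes was not tested for any setting. The settings without Mbp-positive neurons, without neurons under 20000 counts, among Prkcd-negative neurons and with each date alone were chosen after seeing the data. Within 1 date, with 3 samples, 12 results passed and 95 did not, all in the same direction. The median pair correlation lay between 0.0651 and 0.0851. Each class comparison was paired by having the sample as a block. Depth limits the members with few counts, and Fosl1, Egr3, Atf3, Nr4a2 and Maff passed the low-count filter in no main fit.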
